A study of Mus musculus with 9 samples.

Results

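The 10 genes of the fat cell, or adipocyte, described here were followed in mouse melanomas: Adipoq, Fabp4, Cfd, Cidec, Retn, Lpl, Pparg, Cd36, Car3 and Lep. They were found on a 2-colour Agilent mouse array by their current symbol or a synonym, which gave 14 of the 41174 probes, and a probe was kept if 3 or more of the 9 arrays marked its tumour signal as well above background. This kept 13 probes for 9 of the 10 genes, among 26870 kept probes in all. Lep, which encodes the fat cell hormone leptin, was well above background on 0 arrays and was not tested.

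The tumours grew from 3 variants of B16-F10, a mouse melanoma cell line, that were set apart by HDC, or histidine decarboxylase, on which histamine synthesis depends. Histamine production and release is enhanced in HDC-S, diminished in HDC-A and left unmodified in HDC-M. Each group had 6 tumours, pooled in pairs to 3 RNA pools, so each array measured 1 pool of 2 tumours, labelled with Cy5. The Cy3 channel of every array held RNA of HDC-M cells grown in culture, the common reference. Each group came from 1 line variant, so line and histamine capacity cannot be told apart, and the labels used here give neither the strain, sex and age of the host mice nor the site of the tumours. Since no dye was swapped, the dye and the contrast of tumour with culture cannot be told apart either. The pools are stated to be biological replicates, and p-values measure the spread between pools.

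Adipocytes store fatty acids as triglyceride and secrete hormones. Pparg, a nuclear receptor that binds fatty acid derivatives, drives their differentiation together with C/EBP factors, and Fabp4, Lpl, Cd36, Cidec and Adipoq are known targets of it. Several of these genes are not limited to fat: Fabp4, Lpl, Cd36 and Pparg are known in macrophages, Fabp4 and Cd36 in the endothelium of small vessels, and Car3 in skeletal muscle.

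Across the 9 pools, Fabp4, Cfd, Lpl, Pparg, Car3, Cidec and Cd36 had Cy5 signals above the 99th percentile of the 314 negative control spots on all 9 arrays. Adipoq exceeded that percentile on 7 of 9 arrays, and the probes of Retn on 4 and 3. None of the 13 kept probes passed in a comparison of 2 tumour groups. For Car3, Cfd and the brighter Fabp4 probes, the HDC-A pools differed from each other by more than any group mean did from another, and Car3 followed the skeletal muscle genes of each pool.

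**Figure D1:**
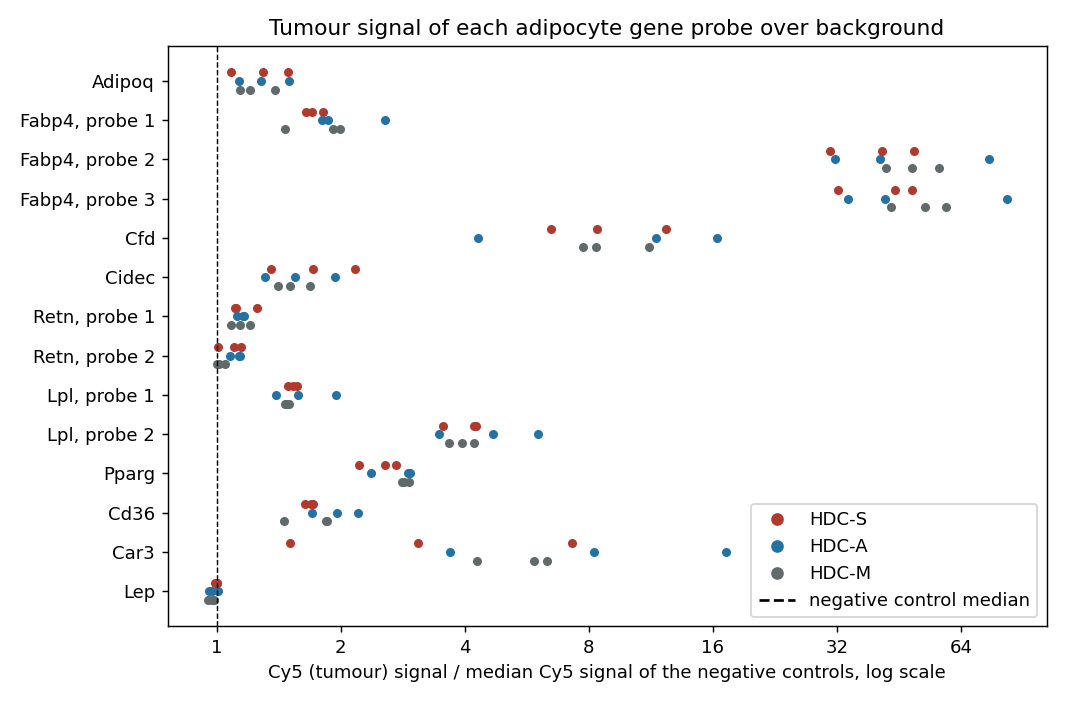
Cy5 (tumour) signal of each probe divided by the median Cy5 signal of the negative controls of the same array, on a log scale, with 1 point per array, coloured by group. Lep sits on the dashed line at 1 in all groups, Adipoq and Retn lie just right of it, and Fabp4 probes 2 and 3 reach 74.6 and 82.5. Signals of different probes are not compared with each other.

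The transcription factor Pparg, measured by 1 probe (A_51_P106799, chromosome 6), had log2 ratios of tumour over reference of 0.56, 0.59 and 0.88 in HDC-S tumours, 0.54, 1.01 and 0.70 in HDC-A tumours and 1.02, 0.73 and 0.37 in HDC-M tumours (replicates 1, 2 and 3 in each group). The 3 groups overlapped, and HDC-M tumours held both the highest and the lowest value. Pparg averaged 0.68 ± 0.18 in HDC-S, 0.75 ± 0.24 in HDC-A and 0.71 ± 0.33 in HDC-M tumours (SD, n = 3 each). HDC-S differed from HDC-M by -0.03 (95% interval -0.42 to 0.36, limma adjusted p = 0.966). HDC-A differed from HDC-M by 0.04 (-0.35 to 0.43, limma adjusted p = 0.940). This sign turned with no background correction, median centring, scaling between arrays, Feature Extraction ratios, Cy5 alone and the first scan day alone. It also turned without HDC-A replicate 2 and without HDC-M replicate 3.

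Fabp4, the fatty acid carrier of the adipocyte cytoplasm, had 3 probes on chromosome 3, and they did not have the same ratios. Probe 2 (A_51_P336830) gave log2 ratios of 4.56, 4.50 and 4.06 in HDC-S, 4.38, 5.33 and 4.07 in HDC-A and 4.51, 4.58 and 3.83 in HDC-M tumours. Probe 3 (A_51_P336833) gave 5.19, 5.10 and 4.51 in HDC-S, 4.84, 6.08 and 4.73 in HDC-A and 5.15, 5.02 and 4.07 in HDC-M tumours. In both, replicate 2 of HDC-A was highest and replicate 3 of HDC-M lowest, and the groups overlapped. The signal of probe 3 in the cultured reference did not exceed the 99th percentile of the negative controls on any array, which puts the denominator of its ratios at background. Probe 1 (A_52_P564544) had 0.85, 1.09 and 0.70 in HDC-S, 0.90, 1.29 and 0.73 in HDC-A and 0.60, 0.91 and 0.30 in HDC-M tumours. Its Cy5 signal was 1.46 to 2.57 times the negative control median, and in the files' own coordinates it lies 3909 and 3991 bases from probes 2 and 3. For probe 2, HDC-S minus HDC-M was 0.06 (95% interval -0.64 to 0.77, limma adjusted p = 0.957) and HDC-A minus HDC-M was 0.29 (-0.42 to 0.99, limma adjusted p = 0.731). The first of these turned sign under several settings and the second under 3.

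Lpl, the lipoprotein lipase that frees fatty acids from circulating triglyceride, had 2 probes. Its brighter probe (probe 2, A_51_P259296, chromosome 8) had log2 ratios of 1.38, 1.47 and 1.36 in HDC-S, 1.09, 1.86 and 1.87 in HDC-A and 1.34, 1.08 and 0.61 in HDC-M tumours. All 3 HDC-S values lay above all 3 HDC-M values, by a gap of hundredths between the nearest pools, while HDC-A overlapped both other groups. HDC-S minus HDC-M was 0.39 (95% interval -0.12 to 0.90, limma adjusted p = 0.477). HDC-A minus HDC-M was 0.59 (0.08 to 1.1, unadjusted p = 0.0270 by limma), which did not pass over all probes (limma adjusted p = 0.243). The dimmer probe 1 (A_52_P257812), 5030 bases away in the files' coordinates, gave 0.20 (95% interval -0.11 to 0.52) and 0.19 (-0.13 to 0.50) for the same 2 differences.

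Cd36, a membrane receptor that takes up long-chain fatty acids, was measured by 1 probe on chromosome 5 (A_51_P375146). Its log2 ratios were 0.45, 0.42 and 0.49 in HDC-S, 0.51, 0.88 and 0.62 in HDC-A and 0.31, 0.54 and 0.22 in HDC-M tumours. The HDC-S values were the most alike of any group and lay below all HDC-A values. HDC-A minus HDC-M was 0.31 (95% interval 0.07 to 0.55, unadjusted p = 0.0154 by limma), the lowest adjusted p of any member in that comparison (0.189 by limma). HDC-S minus HDC-A was -0.22 (-0.45 to 0.02, limma adjusted p = 0.311). Cidec, a lipid droplet protein that helps droplets fuse and grow, had 0.86, 0.59 and 0.32 in HDC-S, 0.36, 0.88 and 0.20 in HDC-A and 0.64, 0.34 and 0.16 in HDC-M tumours (A_51_P490456, chromosome 6). The groups overlapped throughout, and HDC-S minus HDC-M was 0.21 (95% interval -0.23 to 0.65, limma adjusted p = 0.687).

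Among the secreted products, Cfd, the complement factor D or adipsin, had the widest range of ratios. Its probe (A_51_P156955, chromosome 10) had log2 ratios of 2.84, 2.47 and 1.99 in HDC-S, 2.87, 3.53 and 1.32 in HDC-A and 2.32, 2.48 and 1.59 in HDC-M tumours. HDC-A held both the highest and the lowest pool, and its SD was 1.14 against 0.47 in HDC-M. HDC-A minus HDC-M was 0.44 (95% interval -0.67 to 1.55, limma adjusted p = 0.739), and without HDC-A replicate 2 it was -0.041. Adipoq, the hormone adiponectin, had 0.46, 0.59 and 0.20 in HDC-S, 0.41, 0.57 and 0.28 in HDC-A and 0.31, 0.44 and 0.16 in HDC-M tumours (A_51_P458451, chromosome 16). In each group replicate 2 was highest and replicate 3 lowest. The reference signal of Adipoq was 0.927 to 0.992 times the negative control median, so its ratios, too, have a background denominator and are not fold changes of the RNA. HDC-S minus HDC-M was 0.11 (95% interval -0.15 to 0.38, limma adjusted p = 0.723) and HDC-A minus HDC-M was 0.12 (-0.15 to 0.38, limma adjusted p = 0.702).

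Retn, the hormone resistin, had ratios near 0. Probe 1 (A_51_P233597, chromosome 8) had 0.17, 0.08 and 0.02 in HDC-S, -0.03, -0.11 and -0.12 in HDC-A and -0.06, -0.21 and -0.03 in HDC-M tumours. The HDC-S values lay above all others. The difference was 0.19 from HDC-M (95% interval 0.03 to 0.34, limma adjusted p = 0.245) and 0.17 from HDC-A (0.02 to 0.33, limma adjusted p = 0.196), with unadjusted p of 0.0217 and 0.0308, and neither passed over all probes. Its Cy5 signal was 1.08 to 1.26 times the negative control median, with group medians of 1.11 in HDC-S, 1.16 in HDC-A and 1.14 in HDC-M, so HDC-S was not brightest in Cy5. The Cy3 signal of the common reference was 1.02 to 1.03 times its negative control median on HDC-S arrays and 1.05 to 1.13 times on the others. The part of this denominator in the difference was not tested. Probe 2 (A_52_P55972), 38 bases away, was not well above background on any HDC-M array. By mean normalised Cy5 intensity it was 1.09-fold brighter in HDC-S (2 of 3 arrays measured) and 1.07-fold brighter in HDC-A, each against HDC-M. In HDC-M its own signal exceeded the lowest one counted as measured, so these are plain ratios of means near background and not lower bounds. These values are open to dye bias, and by the log2 ratio used elsewhere HDC-S minus HDC-M was 0.14 (limma adjusted p = 0.557) and HDC-A minus HDC-M was -0.08 (limma adjusted p = 0.749), the opposite direction for HDC-A. The Lep probe stayed at 0.951 to 1.01 times the negative control median.

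Car3, a carbonic anhydrase abundant in fat and in slow muscle, varied most among the members. Its log2 ratios were 1.05, 2.16 and 0.36 in HDC-S, 2.30, 3.51 and 1.22 in HDC-A and 2.02, 1.22 and 1.27 in HDC-M tumours (A_51_P431329, chromosome 3). The spread within HDC-S and HDC-A exceeded the differences between groups or came close to them, with SDs of 0.91 and 1.14, against 0.45 in HDC-M. HDC-A minus HDC-M was 0.84 (95% interval -0.46 to 2.14, limma adjusted p = 0.548) and HDC-S minus HDC-A was -1.15 (-2.45 to 0.15, limma adjusted p = 0.325). HDC-S minus HDC-M was -0.31, and without HDC-S replicate 3 it was 0.10.

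**Figure D2:**
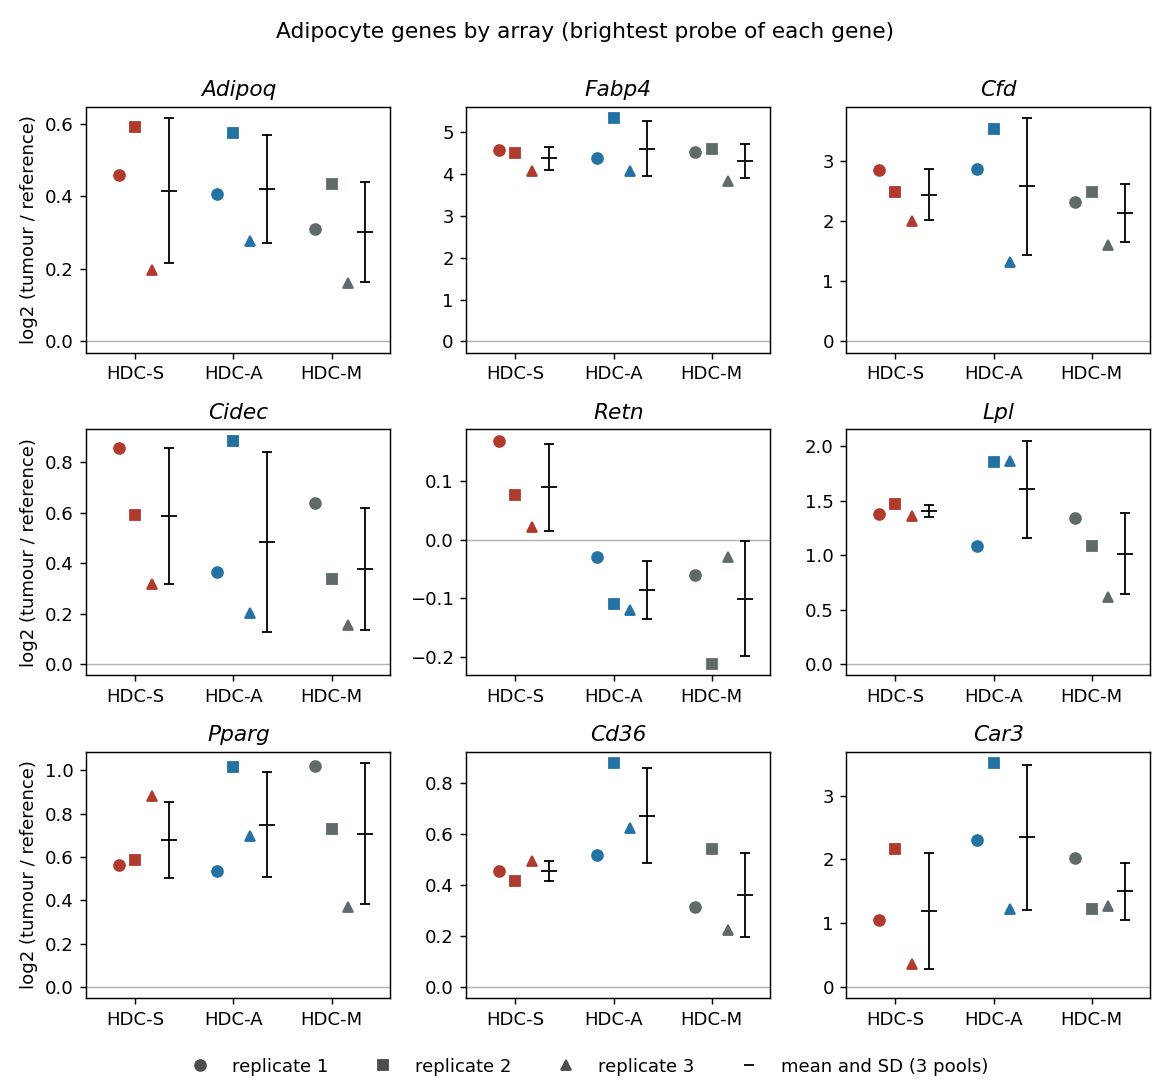
Log2 ratio of tumour over cultured reference for the brightest probe of each measured gene, 1 point per array (marker shape gives the replicate number), with the group mean and SD of 3 pools in black. The groups overlap for most genes, HDC-A replicate 2 is highest for Fabp4, Cfd, Cidec, Cd36 and Car3, and the vertical axes differ between panels.

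Between groups, 0 of 13 member probes passed an adjusted p of 0.05 by limma in each comparison. For HDC-S minus HDC-M, 0.681% of 26868 tested probes passed, 1 member probe had an unadjusted p below 0.05 by limma, 11 of 13 differences were above 0 and their median was 0.18, against 0.01 over all probes. For HDC-A minus HDC-M, 1.44% of all probes passed, 2 member probes had an unadjusted p below 0.05, 12 of 13 differences were above 0 and the median was 0.29, against 0.01. For HDC-S minus HDC-A, 5.26% of all probes passed, 2 member probes had an unadjusted p below 0.05, 4 of 13 were above 0 and the median was -0.10, against 0.00. At these background shares fewer than 1 of 13 probes would pass on average, so the counts say little about the members. The probes share pools, the first 2 comparisons share the HDC-M arrays, and the 13 probes are not independent. The number above 0 in HDC-S minus HDC-M was 7 of 13 with no background correction and 8 of 13 after scaling between arrays, and in HDC-A minus HDC-M it was 8 of 13 after scaling. Groups did not overlap at 2 of 13 probes for HDC-S and HDC-M (Retn probe 1 and Lpl probe 2), against 21.5% of all probes, at 0 for HDC-A and HDC-M, against 20%, and at 2 for HDC-S and HDC-A (Retn probe 1 and Cd36), against 23.6%. In bulk tumour RNA, fewer cells of a type and less RNA per cell cannot be told apart.

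**Figure D3:**
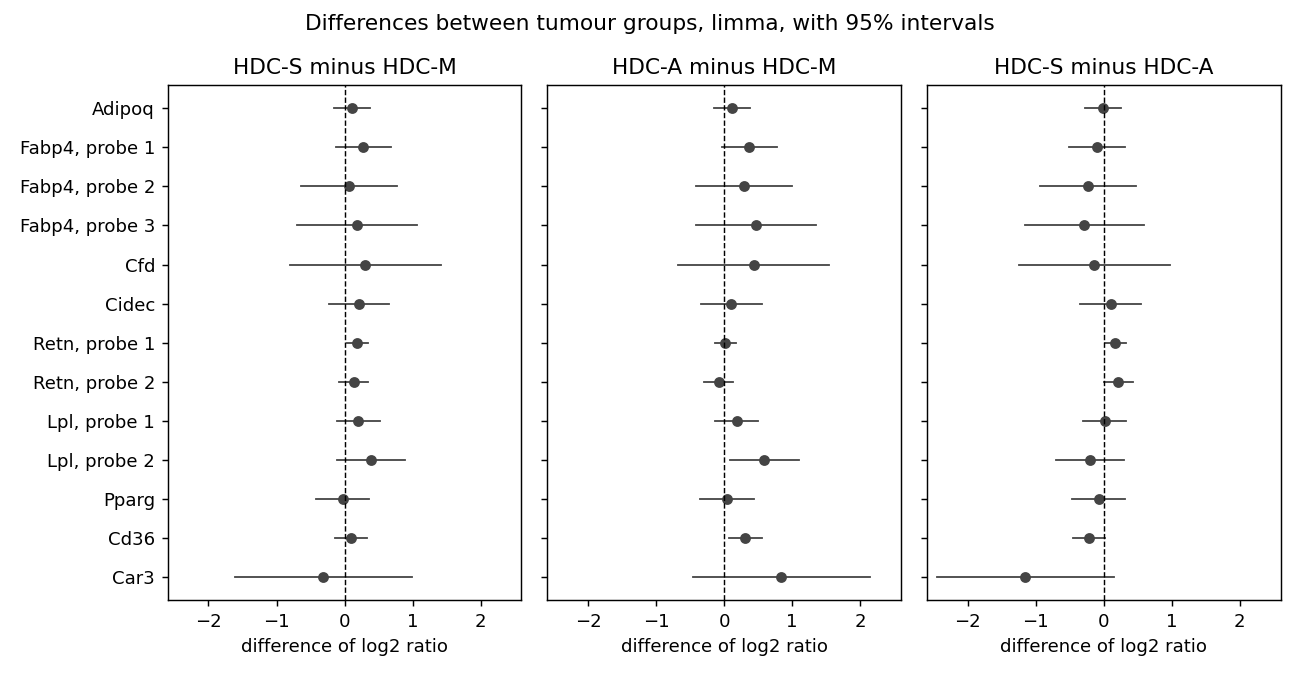
Difference of the mean log2 ratio between tumour groups for the 13 kept probes, with 95% intervals from limma, in 3 panels by comparison and with 0 dashed. Most intervals include 0, and those that do not (both Retn probes, Lpl probe 2 and Cd36) did not pass after adjustment over all probes.

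Against the cultured reference, 11 of 13 member probes were higher in tumours and 0 lower (limma, adjusted p of 0.05), where 47.3% of all probes were higher and 31.6% lower. Probes had been kept by their tumour signal alone, so a probe dim in tumours could not enter, among the members or among all probes. This filter favours higher over lower, and the counts are a description. The median of the members was 0.71 on the log2 scale, against 0.06 over all probes. The bright Fabp4 probe 2 was higher by 4.42 (SE 0.13, limma adjusted p = 1.91e-09), Cfd by 2.38 (SE 0.20, limma adjusted p = 2.72e-06), Car3 by 1.68 (SE 0.24, limma adjusted p = 0.000106) and Lpl probe 2 by 1.34 (SE 0.09, limma adjusted p = 5.76e-07). All of them were positive on 9 of 9 arrays. Both Retn probes did not pass (-0.03 and -0.07). The reference is 1 RNA, so its own spread is not in the test, and its signal exceeded the 99th percentile of the negative controls on all 9 arrays for Fabp4 probe 2 and on 7, 7, 6 and 4 arrays for Lpl probe 2, Pparg, Cfd and Car3. For the other kept probes apart from Retn it did so on no array. Even for Fabp4 probe 2 the reference signal was only 1.15 to 1.33 times the negative control median. It was 1.02 to 1.18 times for Lpl probe 2, 1.00 to 1.21 for Pparg, 1.05 to 1.14 for Cfd and 1.02 to 1.14 for Car3. The differences of these probes, too, have denominators near background and are not fold changes of the RNA.

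The differences between pools had a pattern of their own, described here after the values were seen. Replicate 3 was lowest in each of the 3 groups at 6 of 13 member probes (Adipoq, the 3 of Fabp4, Cfd and Cidec), against 5.23% of all probes, and replicate 3 of every group was scanned on the second of 2 scan days. By log2 ratio, HDC-A replicate 2 was the highest of the 9 arrays at 7 of 13, against 14.9%, and HDC-M replicate 3 the lowest at 9 of 13, against 15.6%. By Cy5 signal over the negative control median, HDC-M replicate 3 was the lowest array at none of these probes. For Fabp4 probe 2 it had 48.6, against 30.7 in HDC-S replicate 3 and 31.7 in HDC-A replicate 3. The ratio spanned more than 1 on the log2 scale at 5 of 13 probes, against 4.87%. HDC-A replicate 2 also had the highest means of the skeletal muscle (2.80), fibroblast and fat cell precursor (3.42), macrophage (2.36) and endothelial (1.74) marker lists. HDC-M replicate 3 had the lowest means of the macrophage (1.20) and endothelial (0.90) lists and the highest share of probe spots well above background, 69.7%, where the other arrays had 58.0% to 65.8%. Their part in the members' values was not tested.

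Car3 followed skeletal muscle. Over the 9 arrays its ratio correlated with the mean ratio of 15 measured skeletal muscle genes with a Pearson r of 0.979 (exact permutation p = 3.03e-05, Benjamini-Hochberg 0.00136 over 45 relations) and a Spearman rho of 0.967 (exact permutation, adjusted 0.00744). Without the 2 arrays farthest from the median of the muscle mean (HDC-S replicate 3 and HDC-A replicate 2) r was 0.934, and over the 6 arrays of the first scan day it was 0.978. The muscle list means were 1.19, 2.10 and 0.65 in HDC-S, 2.15, 2.80 and 1.52 in HDC-A and 1.67, 1.18 and 1.27 in HDC-M tumours, and within each group the pools had the same order as by Car3. Acta1, the actin of skeletal muscle fibres, ran from 1.39 in HDC-S replicate 3 to 5.03 in HDC-A replicate 2. The 45 relations were those of 9 genes with 5 cell type lists, added after the values had been seen.

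**Figure D4:**
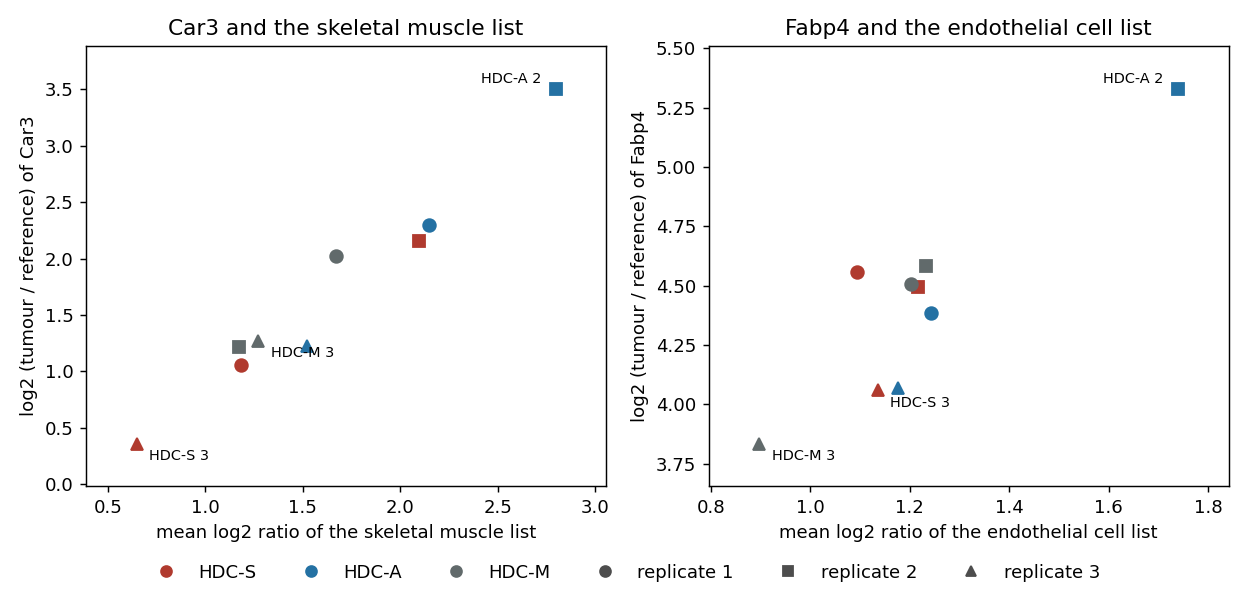
Log2 ratio of Car3 against the mean log2 ratio of the skeletal muscle list (left) and of Fabp4 probe 2 against that of the endothelial cell list (right), 1 point per array, coloured by group, with marker shape for the replicate. Car3 rises with muscle across all arrays (r = 0.979), while the relation of Fabp4 (r = 0.896) rests on HDC-A replicate 2 and HDC-M replicate 3.

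Of the other 44 relations, 3 had an adjusted p below 0.05. Fabp4 correlated with the endothelial list at r = 0.896 (exact permutation p = 0.00427, adjusted 0.0481, rho 0.617), and without HDC-A replicate 2 and HDC-M replicate 3 r was 0.251, so that this relation rests on those samples. Fabp4 and Adipoq correlated with the fibroblast and fat cell precursor list at r = 0.856 and 0.827 (adjusted exact permutation p = 0.0481 for each), with rho of 0.817 for each (adjusted 0.121). Without HDC-S replicate 2 and HDC-A replicate 2 these were 0.711 and 0.655. Leaving out HDC-A replicate 2 alone gave 0.632 for Fabp4 (adjusted exact permutation p = 0.466). Adipoq correlated with the skeletal muscle list at 0.685 and with the macrophage list at 0.746, and neither passed. Car3 also correlated with the fibroblast and fat cell precursor list at 0.818 and with the endothelial list at 0.784. These did not pass either (adjusted exact permutation p = 0.0552 and 0.109), nor did Fabp4 with skeletal muscle at 0.695. Retn and Pparg gave no relation that passed.

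**Figure D5:**
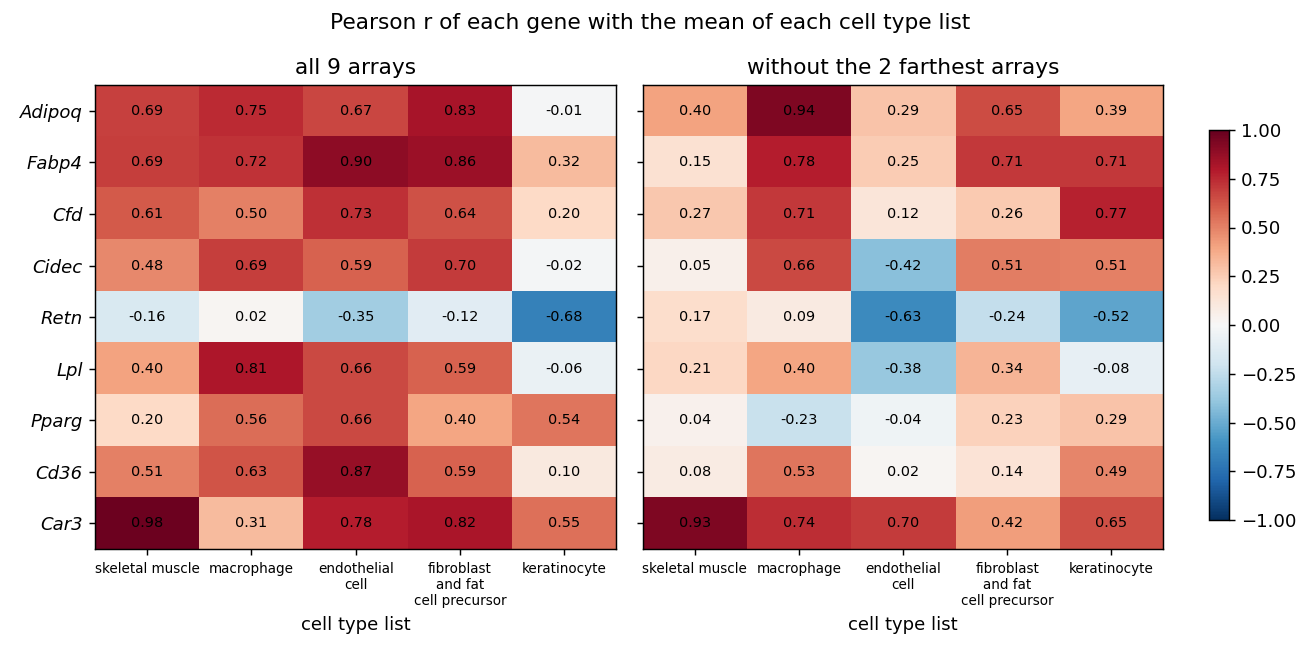
Pearson r of the ratio of each gene (rows) with the mean ratio of each cell type list (columns) over 9 arrays (left) and without the 2 arrays farthest from the median of the list mean (right). The r of Car3 with skeletal muscle is 0.98 on the left and 0.93 on the right, and that of Fabp4 with the endothelial list is 0.90 and 0.25.

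The genes most like Adipoq over the arrays were outside the lists used here. Of 17052 named probes of non-members compared over the 9 arrays, those with a high Pearson r to Adipoq included Proser2 (0.977), Alox5, the 5-lipoxygenase (0.952), Sulf1, an extracellular sulfatase (0.939), Wnt1 (0.936), Il31ra (0.931), Igf1, the insulin-like growth factor (0.921), Fgfr4 (0.920), Olfr1350 (0.920) and Syk, a kinase of immune receptors (0.918). Several of these have small ratios, as Wnt1 spans 0.09 to 0.23. Among the members, Fabp4 probe 1 had r = 0.906, Fabp4 probe 2 had 0.822, Cfd 0.783, Cidec 0.717, Car3 0.664, Lpl probe 2 0.437, Cd36 0.507, Pparg 0.149 and Retn probe 1 0.103. Over the 6 arrays of the first scan day these were, in the same order, 0.918, 0.521, 0.505, 0.356, 0.416, 0.623, 0.569, -0.163 and 0.190. The non-members named above had 0.770 to 0.938 on that day. The Cy5 signal of Adipoq itself was 1.08 to 1.49 times the negative control median. All these r values are a description over 9 or 6 arrays, which share the reference RNA, and the part of scan day in them was not tested.

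Further fat cell genes were taken from lists. Of 21 genes of lipid storage and lipolysis, 19 were measured. Agpat2, which makes phosphatidic acid, was higher in HDC-S than in HDC-A tumours (0.31, limma adjusted p = 0.0449; 0.0581 with the replicate number as a block). That call was lost in 8 of 9 fits that left out 1 array, with adjusted p up to 0.132 by limma, and its other probe gave 0.22 (limma adjusted p = 0.249). Mogat1, a monoacylglycerol acyltransferase, passed by 1 of its 3 kept probes (A_51_P112151), with HDC-A minus HDC-M of 0.50 (limma adjusted p = 0.0211, 2 usable HDC-M arrays) and HDC-S minus HDC-A of -0.51 (limma adjusted p = 0.00696). Its brightest probe gave 0.43 (limma adjusted p = 0.118) and -0.46 (limma adjusted p = 0.0618) for the same differences. The remaining probe (A_52_P364021) gave 0.03 (limma adjusted p = 0.913) and -0.19 (limma adjusted p = 0.328). No other gene of the list passed between groups. Among those that did not were Abhd5, the activator of the triglyceride lipase Pnpla2 (HDC-A minus HDC-M -0.34, limma adjusted p = 0.0697), and Gpd1, which supplies glycerol phosphate (HDC-S minus HDC-M 0.46, limma adjusted p = 0.123). Plin1, which coats the droplets of fat cells, had log2 ratios from -0.13 to 0.30 and Cy5 signals of 1.11 to 1.72 times the negative control median. Aqp7 and Cideb were not measured. Cidea, a droplet protein of brown fat and skin glands, had log2 ratios of -0.05, 0.29 and 0.37 in HDC-S, 0.55, 0.75 and 0.44 in HDC-A and 2.50, 1.50 and 0.31 in HDC-M tumours. Krt1, an epidermal keratin, had 0.22, 0.50 and 0.61 in HDC-S, 0.66, 0.75 and 0.51 in HDC-A and 2.88, 1.83 and 0.33 in HDC-M tumours. The mean of the 11 measured keratinocyte genes was 0.08, 1.01 and 1.09 in HDC-S, 1.68, 2.03 and 1.00 in HDC-A and 2.45, 1.70 and 1.40 in HDC-M tumours. Their part in the Cidea values was not tested.

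Of 12 adipogenic transcription factors, all were measured. Srebf1, which switches on lipid synthesis genes, had log2 ratios of 1.07, 1.14 and 1.14 in HDC-A, against 0.63, 0.62 and 0.70 in HDC-M tumours. It rose by 0.46 in HDC-A against HDC-M (SE 0.06, limma adjusted p = 0.0145), and HDC-S fell by 0.35 against HDC-A (SE 0.06, limma adjusted p = 0.0150). The rise against HDC-M was 0.043 under median centring (limma adjusted p = 0.949) and 0.19 after scaling between arrays (limma adjusted p = 0.660), and both calls were lost under these settings, with Feature Extraction ratios and on the first scan day alone. Cebpd, an early differentiation factor, was 0.77 in HDC-S minus HDC-M (limma adjusted p = 0.142), and Klf15, another differentiation factor, was -0.35 in HDC-A minus HDC-M (limma adjusted p = 0.182). Of 15 receptor and surface genes, 14 were measured and 0 passed by limma, with the lowest p for Slc2a4, the insulin-regulated glucose transporter (HDC-S minus HDC-M -0.88, limma adjusted p = 0.107). Cav1, the caveolar coat protein, gave 0.80 in HDC-A minus HDC-M (limma adjusted p = 0.207, with 2 usable HDC-M arrays). Of 11 other secreted and marker genes, 10 were measured. Agt, angiotensinogen, fell by 1.23 in HDC-S against HDC-A (limma adjusted p = 0.0236, with 2 usable HDC-S arrays), and Nampt (HDC-S minus HDC-M 0.42, limma adjusted p = 0.0913) and Thrsp (HDC-A minus HDC-M 0.35, limma adjusted p = 0.361) did not pass. Of 10 brown and beige fat genes, 7 were measured, and Ucp1, the uncoupling protein of brown fat, was not. Ppargc1a, a coactivator of mitochondrial genes, fell by 0.89 in HDC-S against HDC-M (limma adjusted p = 0.0394), a call also lost in 8 of 9 fits that left out 1 array. It was lost as well with scan day as a block (limma adjusted p = 0.0645), on the first scan day alone (0.212), under median centring (0.410), after scaling (0.229), with Feature Extraction ratios (0.156) and with Cy5 alone (0.149). Cox8b (HDC-A minus HDC-M 0.91, limma adjusted p = 0.213) and Elovl3 (HDC-A minus HDC-M -0.46, limma adjusted p = 0.246) did not pass.

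Of the lists for other cell types, members of the skeletal muscle, macrophage, endothelial, fibroblast and keratinocyte lists did not pass in any comparison between groups, and of the melanocyte list 3 did. Oca2 fell by 1.02 in HDC-S against HDC-M (limma adjusted p = 0.0118) and by 0.62 against HDC-A (limma adjusted p = 0.0171), and Tyr fell by 0.48 in HDC-S against HDC-A (limma adjusted p = 0.0121). Dct passed by 1 of its 2 kept probes (A_52_P550629), with HDC-A minus HDC-M of -0.88 (limma adjusted p = 0.00406) and HDC-S minus HDC-A of 0.81 (limma adjusted p = 0.00234), while its brighter probe gave 0.12 and 0.00 (limma adjusted p = 0.814 and 0.995).

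Promoter sequence of the members is shown for 3 of them: Pparg, Cd36 and Adipoq, the regulator, a lipid uptake target and a hormone of the group. RefSeq promoters (GRCm38.p6) held 10 starts for 7 members, and Fabp4, Lpl and Car3 have no entry. The 3 shown are also the only members whose starts held AGGTCA or CCAAT, the motifs marked below. The starts of Lep, Cidec, Retn and Cfd held neither. Of the Pparg starts, the one shown holds both motifs, and the others hold AGGTCA alone or CCAAT alone. The 250 bases before a start are given 5′ to 3′ in lower case, with the nuclear receptor site AGGTCA and the CCAAT box, on either strand, in capitals (Adipoq chr16:23146286-23146535, plus strand; Cd36 chr5:17835897-17836146, minus strand; Pparg chr6:115362099-115362348, plus strand).
Adipoq: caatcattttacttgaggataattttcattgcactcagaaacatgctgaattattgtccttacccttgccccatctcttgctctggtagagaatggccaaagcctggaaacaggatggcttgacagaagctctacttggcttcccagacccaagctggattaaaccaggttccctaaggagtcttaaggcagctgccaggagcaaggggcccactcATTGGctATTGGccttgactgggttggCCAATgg
Cd36: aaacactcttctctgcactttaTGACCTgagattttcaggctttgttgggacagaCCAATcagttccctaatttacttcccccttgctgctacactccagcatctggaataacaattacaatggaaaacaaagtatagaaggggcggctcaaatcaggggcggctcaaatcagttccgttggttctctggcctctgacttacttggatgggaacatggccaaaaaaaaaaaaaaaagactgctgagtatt
Pparg: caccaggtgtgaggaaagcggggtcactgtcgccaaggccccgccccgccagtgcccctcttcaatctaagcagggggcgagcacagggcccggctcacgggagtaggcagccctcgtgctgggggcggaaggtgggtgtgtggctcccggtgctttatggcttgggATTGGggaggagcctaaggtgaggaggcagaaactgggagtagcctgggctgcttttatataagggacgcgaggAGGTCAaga

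In all, 17 motifs were tried on both strands. They were chosen after the sequences had been looked at, and those in capitals after the counts were seen. Several overlap, as the longer form of the CCAAT box holds the box itself. AGGTCA was in 3 of 10 starts (Cd36 and 2 of Pparg), against 14% of 32851 RefSeq starts. CCAAT was in 4 of 10, against 33.8%, and its longer form GCCAAT in 2, against 13.5%. AGGACA was in 3 starts, against 17%, and TATAAA in 1, against 12.4%. The palindrome TTGCGCAA was in 1, against 0.164%, and the E-box form CANNTG in 8, against 66.2%. The other 10 were in no member start. Among them were the E-box CACGTG, found at 6.02% of RefSeq starts, the spaced form TTGCNNNAA at 8.29% and its narrower form TTGCNNCAA at 1.74%. The rest were CAAAGG at 17.6%, AAAGGTCA at 1.34%, GGGCAAAGG at 0.536%, the direct repeat of AGGTCA with 1 base between, at 0.0335%, and 3 variants of this repeat, at 0.0548% to 0.654%.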

How the data were processed

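RNA of 9 tumour pools (Cy5) and the cultured HDC-M reference (Cy3) was compared on 9 two-colour arrays. The deposited scanner files, which their headers credit to Feature Extraction 8.5.1.1 of Agilent, give an intensity per spot in each dye. The authors' value table holds log10 ratios of Cy5 over Cy3, equal to the deposited log10 ratio column, with no further centring found. From the deposited intensities, log2 ratios were computed with limma 3.58.1 in R 4.3.3 (normexp, offset 50, then loess within arrays), with control and outlier spots at weight 0 and then left out. Cy5 marks for well above background chose the probes. The Cy3 marks were not used, since 95.2% to 99.7% of negative controls carry them; both channels were set against the negative controls instead.

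lmFit and eBayes were run on all 9 arrays without a block, over all kept probes, with Benjamini-Hochberg adjustment and a threshold of 0.05. Correlations used all orders of 9 arrays (exact, two-sided). These orders treat the arrays as exchangeable, so the p-values take no account of group or scan day. For a gene of several probes in the lists, the brightest stood for it, and another probe is given where it passed. Named from the further lists were every gene past 0.05 between groups and the 3 with the lowest p of each fat list; Plin1, Cidea, Krt1 and Acta1 were chosen after their values were seen. Genes that these rules also name but that are withheld are not reported here. Members and lists were chosen with earlier results of these data known. Deviations of same-numbered pools correlated at 0.107, 0.548 and 0.135 between HDC-S and HDC-A, and at -0.189 to 0.151 in the pairs with HDC-M. Differently numbered pools of HDC-S and HDC-A ran from -0.319 to 0.219. Of these, 0.219 (HDC-S replicate 3, HDC-A replicate 1) and 0.196 (HDC-S replicate 1, HDC-A replicate 3) exceeded 0.107 and 0.135. Only the same-numbered value of replicate 2 lay above all of them, so these values do not settle whether the numbers pair the groups. The labels state no pairing, replicate 3 shares the second scan day, and the fit with the number as a block is given where it changed a call. The number of arrays limits the precision. The files' genome build is not given in the sources used here, so only distances between probes are printed from them.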

Additional observations from a re-analysis of the deposited data

How the results depend on the processing

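Under each alternative 0 of 13 member probes passed between groups by limma. The lowest adjusted p of the members was 0.0564 (Fabp4 probe 1, HDC-A minus HDC-M with the replicate block), then 0.0785 (Lpl probe 2, HDC-A minus HDC-M without HDC-A replicate 1). Against the reference 11 to 13 member probes passed. The number of all probes called moved by over 1.5 times. For HDC-S minus HDC-M it was 183 (64.5% higher), 315 with no background correction, 5 (40%) under median centring, 39 (51.3%) after scaling, 7 with Feature Extraction ratios and 7 in the authors' table, 7 (42.9%) with Cy5 alone, 70 (54.3%) with the replicate block, 85 with scan day as a block, 30 (23.3%) on the first scan day alone and 4 to 189 leaving out an array. For HDC-A minus HDC-M it was 387 (53.5% higher), 2 under median centring, 54 after scaling, 18 (66.7%) with Feature Extraction ratios and 18 in the table, 176 with Cy5 alone, 187 with the replicate block, 189 with the scan day block, 5 on the first day alone and 21 to 218 leaving out an array. For HDC-S minus HDC-A it was 1412 (54% higher), 4 under median centring, 165 after scaling, 392 with Feature Extraction ratios and 392 in the table, 520 with Cy5 alone, 9 (22.2%) on the first day alone and 455 to 1389 leaving out an array. The cause was not tested. Median centring moved the median of all probes to -0.12 in HDC-S minus HDC-M and to -0.11 in HDC-A minus HDC-M, and to 0.19 for tumours minus reference. In HDC-S minus HDC-M the sign turned with no background correction for Adipoq (-0.020), Fabp4 probe 2 (-0.20), Cd36 (-0.0065) and Fabp4 probe 3 (-0.19). It turned under median centring for Fabp4 probe 2 (-0.32), Nampt (-0.12) and Fabp4 probe 3 (-0.19). It turned after scaling between arrays for Fabp4 probe 2 (-1.09), Cfd (-0.20), Gpd1 (-0.16) and Fabp4 probe 3 (-1.05). It turned with Feature Extraction ratios, which the authors' table repeats, for Fabp4 probe 2 (-0.22) and Fabp4 probe 3 (-0.20). It turned with the Cy5 channel alone for Fabp4 probe 2 (-0.24), Fabp4 probe 1 (-0.015) and Fabp4 probe 3 (-0.26). It turned on the first scan day alone for Fabp4 probe 2 (-0.018). In HDC-A minus HDC-M the sign turned with no background correction for Pparg (-0.050). It turned under median centring for Fabp4 probe 2 (-0.099), Pparg (-0.12) and Retn probe 2 (0.076). It turned after scaling between arrays for Fabp4 probe 2 (-1.05), Cfd (-0.15), Pparg (-0.11), Klf15 (0.34), Cav1 (-0.25) and Fabp4 probe 3 (-0.98). It turned with Feature Extraction ratios, which the authors' table repeats, for Pparg (-0.11). It turned with the Cy5 channel alone for Fabp4 probe 2 (-0.023), Pparg (-0.036), Fabp4 probe 3 (-0.0035) and Retn probe 2 (0.15). It turned on the first scan day alone for Pparg (-0.10) and Retn probe 2 (0.022). In HDC-S minus HDC-A the sign turned with no background correction for Lpl probe 1 (-0.025). It turned under median centring for Lpl probe 1 (-0.029). It turned after scaling between arrays for Adipoq (0.0076). It turned with Feature Extraction ratios, which the authors' table repeats, for Cidec (-0.0076) and Fabp4 probe 1 (0.26). It turned with the Cy5 channel alone for Retn probe 2 (-0.0044) and Lpl probe 1 (-0.069). It turned on the first scan day alone for Adipoq (0.034). Further, leaving out 1 array at a time gave a turned sign in HDC-S minus HDC-M for Fabp4 probe 2 (-0.17 to 0.22), Pparg (-0.20 to 0.13), Car3 (-0.80 to 0.10) and Fabp4 probe 3 (-0.15 to 0.40); leaving out 1 array at a time gave a turned sign in HDC-A minus HDC-M for Retn probe 1 (-0.041 to 0.050), Fabp4 probe 2 (-0.083 to 0.55), Cfd (-0.041 to 1.07), Cidec (-0.093 to 0.25) and Pparg (-0.13 to 0.20); leaving out 1 array at a time gave a turned sign in HDC-S minus HDC-A for Cidec (-0.037 to 0.30), Lpl probe 1 (-0.090 to 0.084), Adipoq (-0.092 to 0.11), Cfd (-0.76 to 0.34), Fabp4 probe 2 (-0.49 to 0.15), Pparg (-0.18 to 0.061), Fabp4 probe 1 (-0.22 to 0.063) and Fabp4 probe 3 (-0.53 to 0.15). The further list genes gave 12 calls between groups by limma. Of these calls 0 held under median centring and 0 on the first scan day alone (6 arrays), 3 after scaling between arrays (Oca2 against HDC-M, Tyr, and Mogat1 in HDC-S minus HDC-A), and 6 with Feature Extraction ratios, where both of Srebf1, that of Oca2 against HDC-M, Agt, Agpat2 and Ppargc1a were lost. With Cy5 alone 8 held, with scan day as a block 10 (lost: Ppargc1a and Agpat2), with the replicate block 11 and with no background correction 11 (lost in each: Agpat2). Both filters on dim probes kept 12. Of 9 fits without an array, the call held in 1 for Agpat2, 1 for Ppargc1a, 6 and 7 for Srebf1 (against HDC-M and HDC-S), 6 for Agt, 6 for Oca2 against each other group, 8 for Tyr, 5 and 9 for Mogat1 and 9 for Dct in both comparisons. Of the relations with cell type lists, which were added after the data were seen, that of Car3 with skeletal muscle kept an adjusted p below 0.05 in 17 of 18 alternatives (r 0.942 to 0.987), failing on the first scan day alone (exact permutation, adjusted 0.125, 6 arrays). Those of Fabp4 with the endothelial and fibroblast lists and of Adipoq with the fibroblast list kept it in 6, 3 and 2 of 18. Taking all kept probes of a gene in place of the brightest moved a list mean by at most 0.63. The replicate block changed no call of a member, and that of Agpat2 had an adjusted p of 0.0581 by limma with it. Arrays of 3 pools a group, and reference signals at background for most members, limit these values.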
